A study of Homo sapiens with 8 samples.

Results

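Expression of 10 genes of the apolipoproteins and of lipoprotein assembly was examined in Huh7 cells after depletion or overexpression of UPF1. The genes were taken by symbol (APOA1, APOA2, APOB, APOC1, APOC3, APOE, APOH, APOM, MTTP and LIPC), with earlier results of these data known, and all 10 had a row among the 17076 genes of the deposited tables. Huh7 is an established cell line from a human hepatocellular carcinoma, and UPF1 is an RNA helicase required for nonsense-mediated mRNA decay (NMD). RNA-seq was performed on 4 groups of 2 libraries. For depletion, the siUPF1 libraries came from cells given siRNA against UPF1 and the siControl libraries from cells given control siRNA. For overexpression, the MYC-UPF1 libraries came from cells given a vector for MYC-tagged UPF1 and the MYC libraries from cells given the control MYC vector. The methods describe transfection with a lipid reagent for siRNA and plasmid DNA alike, and the siRNA against UPF1 used for the sequenced cells was not identified here. The sources used here do not say whether the replicates came from separate cultures, so p-values measure only the spread between these libraries.

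Hepatocytes package triglyceride and cholesterol ester into very low density lipoproteins. APOB is the structural protein of these particles, and the microsomal triglyceride transfer protein, encoded by MTTP, loads lipid onto it in the endoplasmic reticulum. APOA1 and APOA2 are the main proteins of high density lipoprotein, APOE and the small C apolipoproteins exchange between particles, and hepatic lipase, encoded by LIPC, hydrolyses lipid of particles already in the circulation.

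Expression was given in FPKM, fragments per kilobase of transcript and per fixed number of mapped fragments, which accounts for the length of a transcript and the size of a library and can therefore be set side by side between genes. Whole reads could not be recovered from the low values, so read depth is unknown. The limma test was run on log2(FPKM + 1) over all genes with a mean of at least 0.5 FPKM in the 4 libraries of a comparison. A gene was said to rise or fall when its unadjusted p was under 0.05, the threshold used in the study, and Benjamini-Hochberg adjusted p-values from limma are given beside it. The smallest two-sided p that an exact permutation test of 1 gene allows with 2 libraries against 2 is 0.333, and each call therefore depends on a variance estimate that limma moderates over all genes. UPF1 itself was at 44.5 and 47.4 FPKM in siControl and at 20.7 and 21.9 FPKM in siUPF1, a log2 fold change of -1.07 (SE 0.0928, limma adjusted p = 0.0308). It was at 45.1 and 57.4 FPKM in MYC and at 2835 and 2484 FPKM in MYC-UPF1 (log2 fold change 5.68, SE 0.11, limma adjusted p = 8.91e-09). Both differences had the direction of the labels.

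Some libraries differed from their replicates in a way related to GC content. siUPF1 replicate 1 correlated with siUPF1 replicate 2 at 0.9916 over log2(FPKM + 1) of 13412 genes, below its 0.9924 and 0.9934 with the siControl libraries. MYC replicate 1 correlated with MYC-UPF1 replicate 2 at 0.997 and with MYC replicate 2 at 0.9945, and MYC replicate 2 correlated with MYC-UPF1 replicate 1 at 0.9964. Across 12735 genes, the difference between replicate 2 and replicate 1 followed transcript GC content with a Spearman correlation of 0.609 in siUPF1, 0.702 in MYC and -0.644 in MYC-UPF1, against -0.0191 in siControl. Over the 10 genes examined here it was 0.903, 0.879, -0.758 and -0.2. These are correlations across genes, which are not independent replicates, and they are given as a description. Results for the 10 genes after depletion are therefore also given without single libraries where these move them, and after the trend with GC content and length had been taken out of each library.

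The 10 genes were abundant in all 8 libraries, and their mean levels covered a range from 31.7 to 1916 FPKM. Together they made up 0.957% and 0.929% of the summed FPKM in siControl, 0.961% and 1.36% in siUPF1, 0.984% and 0.992% in MYC, and 1.01% and 1.08% in MYC-UPF1. APOA2 was highest, ranking 19 of 17076 genes by its mean over the 8 libraries, followed by APOE at rank 34 (mean 1043 FPKM) and APOA1 at rank 75 (mean 607 FPKM). APOB (mean 349 FPKM) and APOC1 (mean 337 FPKM) were next, and these neighbours did not separate. In the siRNA libraries APOC1, at 358 to 418 FPKM, was above APOB, at 298 to 313 FPKM, whereas in the plasmid libraries APOB, at 338 to 449 FPKM, was above APOC1, at 283 to 310 FPKM. APOH (mean 129 FPKM) and MTTP (mean 54.3 FPKM) followed. The ranges of APOM (mean 35 FPKM), LIPC (mean 31.8 FPKM) and APOC3 (mean 31.7 FPKM) overlapped over the 8 libraries, and the siUPF1 libraries brought MTTP down into the range of APOM.

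After UPF1 depletion, MTTP and APOH fell and APOM rose, and the other 7 genes did not pass the test. The 1 rise among 10 genes stands beside 16.0% of the 13535 genes tested that rose, and the 2 falls beside 5.51% that fell. None of the 10 passed an adjusted p of 0.05, which 0.0369% of genes passed. Their median log2 fold change was 0.067, against 0.057 for all genes tested. In 7 of the 10 genes both siUPF1 libraries lay beyond both siControl libraries, 4 above and 3 below, and 56.0% of all genes tested did so. The share of rises among all calls depended on the scaling, with 2162 genes higher and 746 lower as deposited and 1417 higher and 1408 lower after quantile normalization. In bulk RNA, fewer cells of a type and less RNA per cell cannot be told apart.

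Among the genes of particle assembly, MTTP had the largest change of the 10. It was at 58.5 and 64.2 FPKM in siControl and at 38.1 and 33.7 FPKM in siUPF1. The groups did not overlap, and the depleted libraries were the lowest of all 8. The log2 fold change was -0.76 (SE 0.105, limma adjusted p = 0.0584), a ratio of 0.591, and 0.192% of genes tested had a lower value. The fall passed the unadjusted threshold in 16 of 16 alternatives, from -0.84 to -0.66, and the adjusted threshold only in some. Some of these alternatives leave 1 library in a group. After removal of the GC and length trend the log2 fold change was -0.66 (SE 0.0772, limma adjusted p = 0.00989). In that setting 355 genes higher and 144 lower of 12833 passed the adjusted threshold, against 5 genes as deposited. APOB, the protein onto which MTTP loads lipid, was at 303 and 313 FPKM in siControl and at 311 and 298 FPKM in siUPF1. These groups overlapped, and the log2 fold change was -0.014 (SE 0.0909, limma adjusted p = 0.94).

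APOH, a phospholipid-binding plasma glycoprotein, was at 151 and 164 FPKM in siControl and at 123 and 95.7 FPKM in siUPF1. Both depleted libraries were below both controls, with siUPF1 replicate 2 the lower. The log2 fold change was -0.53 (SE 0.134, limma adjusted p = 0.113). It passed the unadjusted threshold in 16 of 16 alternatives, but its size followed the siUPF1 libraries, at -0.35 without replicate 2 and -0.71 without replicate 1. After removal of the GC and length trend it was -0.42 (limma adjusted p = 0.061).

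APOM, which carries sphingosine-1-phosphate on high density lipoprotein, was at 29.8 and 29.5 FPKM in siControl and at 36.8 and 35.2 FPKM in siUPF1. The groups did not overlap, and both pairs of replicates were close. The log2 fold change was 0.27 (SE 0.089, limma adjusted p = 0.164). The rise passed the unadjusted threshold in 14 of 16 alternatives, and not without siControl replicate 1 or without siControl replicate 2, where its log2 fold change was 0.28 and 0.26.

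APOE and APOA1 had larger increases than APOM as deposited but did not pass the test, and their siUPF1 replicates differed. Each passed the unadjusted threshold in 7 of 16 alternatives. APOE, a ligand of lipoprotein receptors, was at 878 and 915 FPKM in siControl and at 975 and 1596 FPKM in siUPF1, with a log2 fold change of 0.48 (SE 0.211, limma adjusted p = 0.25). Without siUPF1 replicate 2 it was 0.12, and without siUPF1 replicate 1 it was 0.83. APOA1 was at 465 and 535 FPKM in siControl and at 547 and 757 FPKM in siUPF1, with a log2 fold change of 0.37 (SE 0.164, limma adjusted p = 0.252). This value was 0.13 without siUPF1 replicate 2 and 0.60 without siUPF1 replicate 1. Both genes have GC-rich transcripts, and after removal of the GC and length trend their log2 fold changes were 0.23 for APOE and 0.21 for APOA1, below the 0.27 of APOM.

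The remaining 4 genes did not pass the test. APOA2 was at 1833 and 1782 FPKM in siControl and at 1819 and 2193 FPKM in siUPF1, with overlapping groups (log2 fold change 0.14, SE 0.117). Its value was 0.0094 without siUPF1 replicate 2 and 0.28 without siUPF1 replicate 1. APOC1, an inhibitor of lipoprotein uptake, was at 358 and 365 FPKM in siControl and at 366 and 418 FPKM in siUPF1 (log2 fold change 0.11, SE 0.103). This was 0.018 without siUPF1 replicate 2 and 0.21 without siUPF1 replicate 1. APOC3, an inhibitor of triglyceride clearance, was at 33.9 and 34.6 FPKM in siControl and at 33.4 and 32.8 FPKM in siUPF1 (log2 fold change -0.049, SE 0.0878). LIPC was at 28.7 and 31.1 FPKM in siControl and at 32 and 28.7 FPKM in siUPF1, which overlapped (log2 fold change 0.02, SE 0.102). After removal of the GC and length trend the values were 0.14 for APOA2, 0.054 for APOC1, -0.13 for APOC3 and 0.083 for LIPC.

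**Figure D1:**
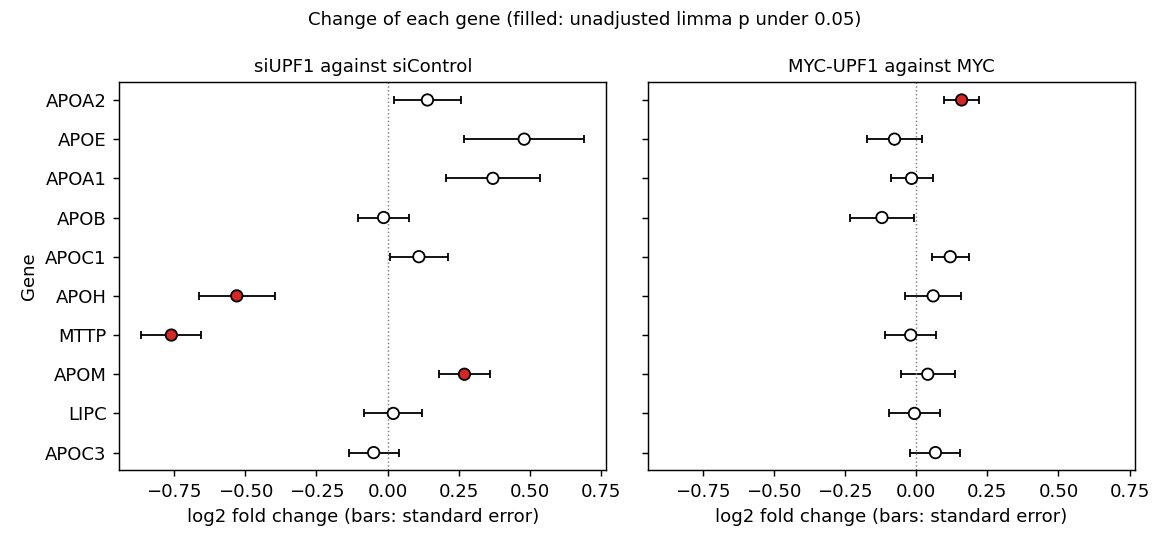
log2 fold change of the 10 genes after UPF1 depletion (left) and UPF1 overexpression (right); bars are standard errors from limma with 2 libraries in each group, and filled points have an unadjusted p under 0.05. MTTP, APOH and APOM are filled on the left and APOA2 alone on the right.

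The changes after depletion tended to rise with transcript GC content. Across 12833 genes, the log2 fold change correlated with GC content at a Spearman correlation of 0.554, and over the 10 genes at 0.77. MTTP, at 41.9% GC, and APOH, at 42.9%, were at the low end, and APOE, at 69%, and APOA1, at 63%, were at the high end. APOB and LIPC, at 43.5% and 44.9% GC, did not fall with MTTP and APOH, and APOC3, at 59.1%, had a lower value than either. After removal of the trend, the correlation was -0.0128 across genes and 0.624 over the 10. The part of GC content in these changes was not tested further.

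The genes lie at 8 places in the genome, since 2 pairs are neighbours. On GRCh37, MTTP is at chr4:100485238-100545154, plus strand, and its main transcript has 18 exons. APOH is at chr17:64208151-64252643, minus strand, and APOM at chr6:31620193-31625987, plus strand. APOA1 and APOC3 lie 2678 bases apart on chromosome 11 in opposite orientations, and APOE and APOC1 lie 4853 bases apart on chromosome 19 in the same orientation. After depletion, the log2 fold changes were 0.37 for APOA1 and -0.049 for APOC3, and 0.48 for APOE and 0.11 for APOC1. None of these genes passed the test, and the difference between neighbours was not tested. Transcripts annotated as NMD targets were listed for APOB, APOC1 and APOA2, 3 of the 10 genes, against 43.3% of 12833 tested genes. None was listed for MTTP, APOH or APOM.

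The 250 bases before the annotated start of the 3 genes that passed the test after depletion are shown for their base composition and motifs, from RefSeq and located on GRCh37 by exact match. They lie at chr4:100495731-100495980 on the plus strand for MTTP, at chr17:64225534-64225783 on the minus strand for APOH and at chr6:31623421-31623670 on the plus strand for APOM. Promoter entries were matched for 7 of the 10 genes. Capitals mark AGGTCA, a half-site of nuclear receptors, on either strand, so that TGACCT is the same motif read on the other strand.
MTTP: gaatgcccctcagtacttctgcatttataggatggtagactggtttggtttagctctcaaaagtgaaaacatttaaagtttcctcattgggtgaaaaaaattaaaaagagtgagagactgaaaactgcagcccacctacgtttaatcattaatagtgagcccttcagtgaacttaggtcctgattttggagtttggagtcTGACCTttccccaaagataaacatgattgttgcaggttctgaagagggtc
APOH: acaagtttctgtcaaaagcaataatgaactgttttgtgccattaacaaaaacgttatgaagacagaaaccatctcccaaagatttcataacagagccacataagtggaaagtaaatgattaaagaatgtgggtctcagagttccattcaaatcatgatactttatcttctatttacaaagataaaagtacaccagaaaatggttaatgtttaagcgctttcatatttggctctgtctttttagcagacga
APOM: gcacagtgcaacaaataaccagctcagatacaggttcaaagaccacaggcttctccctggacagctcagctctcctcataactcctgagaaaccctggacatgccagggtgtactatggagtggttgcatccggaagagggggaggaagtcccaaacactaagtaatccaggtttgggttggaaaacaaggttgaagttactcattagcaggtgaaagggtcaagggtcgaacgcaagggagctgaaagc
The MTTP sequence held AGGTCA at 50 to 45 bases before the start, and the APOH and APOM sequences did not hold it. It was also absent before an upstream MTTP start, at chr4:100485037-100485286, and present 232 to 227 bases before the start of LIPC, which did not pass the test. Among 35116 RefSeq promoters of the same length, 12.1% held it. The motif TATAAA was searched too, is not in capitals here, and was found 227 to 222 bases before the MTTP start and in 10.7% of promoters. Further motifs were searched at first and are not reported here. GC content was 40% for the MTTP sequence shown and 57.2% before its upstream start, 33.2% for APOH and 50.4% for APOM.

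The wider pathway was described from lists of 101 other genes, of which 82 were tested. After depletion 13 rose and 9 fell, with a median log2 fold change of 0.059, close to that of all genes tested. These counts, and those of each list that follow, stand beside the 16.0% of all genes that rose and the 5.51% that fell. None of the 82 passed the adjusted threshold as deposited. After removal of the GC and length trend 7 rose and 9 fell, 10 of the 22 calls were also made there, and 5 genes passed the adjusted threshold, as did 5 with all 8 libraries fitted together. With the trend removed, 2280 of all 12833 genes rose and 725 fell, and 355 higher and 144 lower passed the adjusted threshold. With all 8 libraries fitted together, 260 higher and 108 lower of 13535 genes passed it. The counts of the 82 also moved without single libraries, as did those of all genes. Such fits leave 1 library in a group, and their counts are not set beside each other here.

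Among 25 genes of assembly and secretion, 3 rose and 2 fell. SOAT2, which esterifies cholesterol for packaging, was at 8.9 and 9.77 FPKM in siControl and at 13.5 and 13.9 FPKM in siUPF1 (log2 fold change 0.51, limma adjusted p = 0.0793). AADAC, a lipase of the endoplasmic reticulum, was at 26.6 and 31.7 FPKM in siControl and at 19.5 and 14.1 FPKM in siUPF1 (log2 fold change -0.77, limma adjusted p = 0.0835). The other calls were TM6SF2 at 0.30 and DGAT1, an enzyme of triglyceride synthesis, at 0.27, and SAR1B, a GTPase of the vesicles that leave the endoplasmic reticulum, at -0.27. P4HB, which forms the transfer protein complex together with MTTP, did not pass the test (log2 fold change 0.21).

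Among 11 tested genes listed under remodelling in plasma, 3 rose and 4 fell. The list also holds genes that act inside cells, such as LIPA and LMF1. PON1 and PON3, esterases carried on high density lipoprotein, had log2 fold changes of -0.52 and -0.40. LIPA, the lysosomal acid lipase, was at -0.48. LMF1, required for lipase folding, was at 0.44 and LCAT, which esterifies cholesterol on high density lipoprotein, at 0.31. ANGPTL4, at 0.29, had a low level, with 0.505 and 0.528 FPKM in siControl and 0.699 and 1.04 FPKM in siUPF1.

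Among 14 tested genes of uptake, 3 rose and 1 fell. LRP1, a receptor for remnant particles, had a log2 fold change of 0.43 and LSR, a receptor for triglyceride-rich particles, of 0.31. SDC1, a heparan sulfate proteoglycan that binds remnants, was at -0.34.

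Among 25 tested transcription regulators, 3 rose and 1 fell. NR1H3, a sterol-sensing nuclear receptor, was at 0.30 and PPARA at 0.26, and NR5A2 was at -0.32. HNF4A, a regulator of many apolipoprotein genes, was at 44.1 and 43.9 FPKM in siControl and at 40.6 and 44.5 FPKM in siUPF1, with overlapping groups. Among 7 other tested apolipoprotein genes, APOA5 rose by a log2 fold change of 0.32 from a low level of under 1 FPKM and SAA4 fell by 0.70 on the log2 scale. APOC2, an activator of lipoprotein lipase, did not pass the test (log2 fold change -0.30).

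The label of a liver line was checked against markers. All 13 hepatocyte markers were present, led by AFP at a mean of 11804 FPKM and ALB at 7399 FPKM. After depletion HP fell by 0.77 and AHSG by 0.27 on the log2 scale, and the other 11 did not pass the test. Of the markers of other cell types, 8 of 10 for enterocytes and 2 of 8 for macrophages were read. For endothelium 1 of 5 was read, and for fibroblasts and stellate cells 3 of 7. The others had no row among the 17076 genes, which were all above 0 in all 8 libraries, and were not analysed here. In the enterocyte list VIL1, CDH17, RBP2 and CDX2 were at means of 31.8, 16.9, 12.4 and 10.1 FPKM, whereas SI, APOA4, ALPI and LCT were at 0.595, 0.491, 0.424 and 0.0455 FPKM. The macrophage markers LYZ and CD14 were at 195 and 2.15 FPKM and the endothelial marker PECAM1 at 0.634 FPKM. PDGFRB, COL1A2 and COL3A1 were at 0.854, 0.397 and 0.384 FPKM. RBP2 rose after depletion (log2 fold change 0.37), while the summed level of the enterocyte list was 74.1 and 76.3 FPKM in siControl and 76 and 75.5 FPKM in siUPF1. The part of such markers in the results was not tested.

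After UPF1 overexpression, APOA2 rose and the other 9 genes did not pass the test. This 1 rise stands beside 0.619% of 13251 genes that rose, and 0 of the 10 fell by limma, at an unadjusted p under 0.05, beside 0.807% of genes. The adjusted threshold was passed by 0.00755% of genes and by none of the 10. The median log2 fold change was 0.018, against -0.014 for all genes. Both MYC-UPF1 libraries lay beyond both MYC libraries for 3 of the 10 genes, all above, and for 20.7% of genes tested.

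APOA2 was at 1873 and 1762 FPKM in MYC and at 1998 and 2069 FPKM in MYC-UPF1. The groups did not overlap, and the log2 fold change was 0.16 (SE 0.0616, limma adjusted p = 1). It passed the unadjusted threshold in 8 of 16 alternatives, with values from 0.12 to 0.21. APOC1 was at 287 and 283 FPKM in MYC and at 310 and 310 FPKM in MYC-UPF1, and APOC3 was at 29.2 and 28.7 FPKM in MYC and at 30 and 30.7 FPKM in MYC-UPF1. Their log2 fold changes were 0.12 and 0.068, and neither passed the test. APOC1 passed the unadjusted threshold in 3 of 16 alternatives, under quantile normalization, under crossed replicate numbers and after removal of the GC and length trend. Crossed numbers pair MYC replicate 1 with MYC-UPF1 replicate 2, which correlated at 0.997. They also pair MYC replicate 2 with MYC-UPF1 replicate 1, at 0.9964. This pairing was added after the data were seen, so calls made with it are not separate support.

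The 3 genes that changed after depletion did not pass the test after overexpression. MTTP was at 63.6 and 57.2 FPKM in MYC and at 57.6 and 61.5 FPKM in MYC-UPF1 (log2 fold change -0.019, SE 0.0886). APOH was at 133 and 110 FPKM in MYC and at 121 and 131 FPKM in MYC-UPF1 (log2 fold change 0.06, SE 0.0977). APOM was at 38.8 and 34.4 FPKM in MYC and at 38.5 and 36.8 FPKM in MYC-UPF1 (log2 fold change 0.041, SE 0.0942). The groups overlapped for all 3, and the difference between the effects of depletion and overexpression was not tested.

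APOE was at 917 and 1131 FPKM in MYC and at 1005 and 929 FPKM in MYC-UPF1, and APOA1 was at 608 and 677 FPKM in MYC and at 654 and 616 FPKM in MYC-UPF1. APOB was at 449 and 367 FPKM in MYC and at 338 and 415 FPKM in MYC-UPF1, and LIPC was at 34.8 and 32.2 FPKM in MYC and at 33.3 and 33.3 FPKM in MYC-UPF1. The groups overlapped for these 4 genes. APOB, with a log2 fold change of -0.12 (SE 0.114), passed the unadjusted threshold as lower in 3 of 16 alternatives, at -0.26 without MYC replicate 2 and without MYC-UPF1 replicate 2, and with crossed replicate numbers. Without either replicate 1 its sign turned, to 0.030 and 0.031. APOE passed as lower in 1 alternative, at -0.23 without MYC replicate 1. None of the 82 other pathway genes passed the unadjusted threshold of limma in either direction. Up to 11 did under the alternatives, 2 higher and 9 lower with crossed replicate numbers. In that setting 348 of all 13251 genes were higher and 879 lower.

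The controls of the experiments differed from each other, and this is given without a test. Of the 10 genes, 5 were higher in both MYC libraries than in both siControl libraries (APOA1, APOB, APOE, APOM and LIPC) and 3 were lower (APOC1, APOC3 and APOH), with APOA2 and MTTP overlapping. Among 13359 genes, 66.9% did not overlap. The log2 difference of MYC from siControl was 0.40 for APOB and -0.38 for APOH. The tables hold the 2 experiments separately, and the kind of transfection and any batch cannot be told apart.

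Over the 8 libraries, the median deviation of the 10 genes from their own means ran from -0.100 in siControl replicate 1 to 0.058 in MYC-UPF1 replicate 2. The genes most like this profile among 7753 with a mean of at least 5 FPKM were KLHDC3 (Pearson correlation 0.938 over 8 libraries), PODXL2 (0.930), EGFL7 (0.927), TYW1 (0.924) and BCAP31 (0.920). The 10 genes did not share 1 profile. Their own correlation with it ran from -0.714 for APOC3 to 0.811 for APOA1, and it was -0.001 for MTTP. The libraries of these correlations share their groups, and the values are a description.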

How the data were processed

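Total RNA of Huh7 cells was made into libraries with a stranded mRNA kit. The authors trimmed the reads, aligned them to hg19 with HISAT2 2.1.0, assembled transcripts with StringTie 1.3.4d and deposited FPKM values of each gene. Tables of the whole series matched the files of single libraries, with 0 differences. The largest share of 2086 low genes with a common ratio between libraries was 1.103%, so no whole reads were recovered, no model of counts was run and depth is unknown. Summed FPKM ranged from 403902 to 455592.

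Each treated group was compared with its control in limma 3.58.1 (R 4.3.3; lmFit, then eBayes with a trend of the variance on the mean). Values were log2(FPKM + 1), a scale that understates changes of low genes, and genes needed a mean of at least 0.5 FPKM. The whole table was fitted and p-values were adjusted over it. Python 3.11.15 with pandas 2.3.3, scipy 1.17.1 and matplotlib 3.10.9 was used otherwise. The script was tested on simulated data. GENCODE release 44 on GRCh37 (hg19) held 15741 of the gene symbols. Trends with GC content and length were removed by loess (span 0.5).

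The members and gene lists were chosen with earlier results of these data known. All 10 members and UPF1 were named, with up to 8 list genes per list and comparison that passed an unadjusted p of 0.05 and the 5 genes most like the members' median profile, and some list genes are not reported here. P4HB, HNF4A, APOC2 and the markers given by level were named outside this rule, after their values were seen. The alternatives changed the pseudocount (0.1), the FPKM minimum, the scaling, the libraries in the fit (all 8, or each left out in turn), the replicate block, the eBayes trend and the call rule (also a 1.2-fold change). Crossed replicate numbers and the trend removal with the block were added after the data were seen.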

Additional observations from a re-analysis of the deposited data

How the results depend on the processing

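The falls of MTTP and APOH after depletion kept their direction and passed the unadjusted threshold in 16 of 16 alternatives each. The number of members that rose, 1 as reported, was 3 with a minimum of 5 FPKM and with quantile normalization. Of all genes, 1280 of 7898 and 1417 of 13535 rose in these settings. Members that rose were also 3 with all 8 libraries fitted together and with the replicate block, where 2218 and 1979 of 13535 genes rose. With the GC and length trend removed together with the replicate block they were 2, beside 2208 of 12833 genes. Without single libraries the number of members moved too, as did that of all genes, and the median of the members ran from 0.017 to 0.10. That median was 0.13 with FPKM scaled to an equal sum in each library. After overexpression the number that rose, 1 as reported, was 0 with no FPKM minimum, all 8 libraries fitted together, with the replicate block, eBayes without the trend, the trend removed with the replicate block and a fold change of at least 1.2, and 2 once the GC and length trend was taken out. Of all genes, 137 of 12590 rose once the GC and length trend was taken out, and 103 with the replicate block added. Of 13251 genes, 84 rose with all 8 libraries fitted together, 74 with the replicate block and 87 with eBayes without the trend. With no FPKM minimum, 194 of 17076 genes rose. Without single libraries the numbers of members that rose and fell moved too, and the median of the members ran from 0.0068 to 0.068.

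Signs changed for none of the members that passed the test in the comparison concerned. After depletion, with FPKM scaled to an equal sum in each library, APOB was at 0.051 and APOC3 at 0.015, and LIPC was at -0.017 with quantile normalization and -0.020 with median centring. Without single libraries APOB ran from -0.045 to 0.016 and LIPC from -0.058 to 0.10, with APOB at 0.0085 without siControl replicate 2 and LIPC at -0.038 without siControl replicate 1. After overexpression, with FPKM scaled to an equal sum in each library, APOA1 was at 0.020, MTTP at 0.016 and LIPC at 0.029. With quantile normalization MTTP was at 0.012 and LIPC at 0.034, with median centring LIPC was at 0.0020, and with the GC and length trend removed, with or without the replicate block, APOA1 was at 0.011. Without MYC replicate 1, APOB was at 0.030, MTTP at 0.056 and LIPC at 0.048. Without MYC replicate 2, APOA1 was at 0.062, APOE at 0.075, APOH at -0.072 and APOM at -0.043. Without MYC-UPF1 replicate 1, APOB was at 0.031 and MTTP at 0.027, and without MYC-UPF1 replicate 2, APOA1 was at 0.028. The lowest or highest values without 1 library were -0.094 for APOA1, -0.26 for APOB, -0.23 for APOE, 0.19 for APOH, 0.13 for APOM, -0.095 for MTTP and -0.059 for LIPC. The cause was not tested.

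The labels give the replicates only a number, and whether same-numbered libraries were paired is not known. Their deviations correlated at -0.129 for depletion and -0.569 for overexpression. The replicate block gave 1979 higher and 607 lower genes after depletion, against 2162 and 746, and 74 and 96 after overexpression, against 82 and 107. Crossed replicate numbers gave 2190 and 912 genes after depletion and 348 and 879 after overexpression, with 2 members higher in each and 1 lower after overexpression. Genes passing the adjusted threshold after depletion numbered 5 as reported, 0 with the replicate block or quantile normalization, and 355 higher and 144 lower with the trend removed. Without siUPF1 replicate 1, 3675 genes were higher and 2221 lower, and without siControl replicate 1, 941 and 494. In fits without a library the lone library is assumed to vary like the other group. Unknown depth leaves counting error unmeasured.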
